A study of Mus musculus with 24 samples.

Results

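The 10 genes Cdkn1a, Mdm2, Sesn2, Phlda3, Btg2, Bbc3, Bax, Ccng1, Gdf15 and Trp53inp1 are targets of the transcription factor p53. They were followed here through the DNA-damage chromatin mark gH2AX, by taking every 100 kb bin of the mouse genome (mm10) that overlapped a gene body. This gave 13 bins of the 27268 in the count table, because Mdm2, Cdkn1a and Sesn2 each span 2 bins. For these 3 genes the bin with most of the gene body is called the leading bin and the other the second bin.

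The cells were primary mouse embryonic fibroblasts (MEFs) of strain C57BL6, female or male, either wild type (WT) or SIRT7-KO, which lack the sirtuin deacetylase SIRT7. All of them, WT included, had received 5 Gy of X-rays and 30 min of recovery. Chromatin was immunoprecipitated with an antibody against the histone variant H2AX or against its phosphorylated form gH2AX, and input chromatin was sequenced beside it, so each of the 4 kinds of cells (female WT, female KO, male WT, male KO) had 2 libraries of each of the 3 assays. Unirradiated libraries were not analysed here, so no value below is a change caused by irradiation. No transcripts were measured in these libraries, so neither p53 activity nor the fibroblast identity of the cells was checked against marker genes. Whether the 2 libraries of each group stem from separate cultures or embryos, and how the KO allele was made, is not stated in the labels. A KO difference within a sex can therefore not be told apart from a difference between the cultures used.

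As background, p53 is held at a low level by the ubiquitin ligase Mdm2, is stabilised when the kinases ATM and CHK2 report broken DNA, and then switches on genes that arrest the cell cycle, promote cell death or limit stress. ATM, with the related kinases ATR and DNA-PK, also phosphorylates H2AX into gH2AX, which spreads along the chromosome from a break. gH2AX in a bin therefore reads chromatin around a gene and not the gene's expression.

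p53 binds DNA through paired decamers. The windows below are shown because they are the RefSeq (GRCm38.p6) sequences before the start sites of the member genes in which a decamer was found. Windows from 250 bases before to 50 bases after a start were on hand for 9 of the 10 genes, 13 windows in all, and both strands were searched for exact p53 decamers. Among the member windows 4, each of a different gene, held 1 or more, against 8.36% of all 32851 windows. The 250 bases before the start are printed 5′ to 3′ on the gene's own strand, with matches in capitals.
Cdkn1a, chr17:29090729-29090978, plus strand: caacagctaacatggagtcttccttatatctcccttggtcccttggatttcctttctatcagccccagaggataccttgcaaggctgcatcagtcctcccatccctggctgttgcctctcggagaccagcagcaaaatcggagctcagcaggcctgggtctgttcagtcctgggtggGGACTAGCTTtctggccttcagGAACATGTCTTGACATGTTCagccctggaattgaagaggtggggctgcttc
Mdm2, chr10:117710759-117711008, minus strand: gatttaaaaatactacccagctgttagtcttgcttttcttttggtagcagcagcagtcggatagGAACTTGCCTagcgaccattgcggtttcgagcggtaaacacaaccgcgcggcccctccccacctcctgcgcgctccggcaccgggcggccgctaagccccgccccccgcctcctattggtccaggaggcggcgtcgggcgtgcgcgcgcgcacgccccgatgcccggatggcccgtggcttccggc
Ccng1, chr11:40755287-40755536, minus strand: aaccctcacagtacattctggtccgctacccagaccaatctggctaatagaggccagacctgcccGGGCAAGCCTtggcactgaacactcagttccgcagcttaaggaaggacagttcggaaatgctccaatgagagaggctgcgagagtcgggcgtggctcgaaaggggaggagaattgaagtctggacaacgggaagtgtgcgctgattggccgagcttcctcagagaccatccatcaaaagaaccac
Bax, chr7:45466899-45467148, minus strand: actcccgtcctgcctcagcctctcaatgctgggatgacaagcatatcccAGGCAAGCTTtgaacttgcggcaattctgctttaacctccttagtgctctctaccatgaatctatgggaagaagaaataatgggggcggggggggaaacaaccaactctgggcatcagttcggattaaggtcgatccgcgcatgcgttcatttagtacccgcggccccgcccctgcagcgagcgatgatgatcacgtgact
The Cdkn1a window held the decamer GGACTAGCTT and, closer to the start, the paired site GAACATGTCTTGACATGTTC at 51 to 32 bases before it, with 1 mismatch. Of all windows, 0.158% held such a paired site with at most 2 mismatches. Another Cdkn1a window, around a later start (chr17:29093519-29093818), held 0 exact decamers and 0 paired sites. Mdm2 carried GAACTTGCCT, Ccng1 GGGCAAGCCT and Bax AGGCAAGCTT. These matches are descriptions of letters, and a window covers 0.3% of a bin, so the counts below cannot be tied to them.

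Depth was high for bins of this size. The gH2AX libraries held 84478624 to 212229790 reads, the H2AX libraries 66886947 to 250200158 and the input libraries 92413132 to 269343993. Each member bin had 2175 to 11473 reads per library, a counting error of 0.934% to 2.14%, and the spread between replicates was larger than counting error in all 12 groups (chi-square per degree of freedom 2.58 to 3.9). Reads on the Y chromosome made up 0.0868% to 0.1% of the 12 female libraries and 1.54% to 1.62% of the 12 male ones, as labelled. Values are CPM, counts scaled to the autosomal library size, or log2 ratios of these. They are therefore relative to the rest of the autosomes, and a change of gH2AX over the whole genome cannot be seen in them.

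All 13 member bins were enriched for gH2AX over input, by 1.07-fold to 1.45-fold. Averaged over the 4 kinds of cells, the log2 gH2AX/input ratio was higher than 0 in 13 of 13 bins at an adjusted p under 0.05 (edgeR quasi-likelihood F test, Benjamini-Hochberg over all bins). At this depth 41.5% of all 25703 bins passed the same test as higher and 45.2% as lower, so passing it is common. The members' median was 0.26, against -0.01 over the autosomal bins. Single values carried a standard error of 0.017 to 0.018.

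The leading bin of the feedback gene Mdm2 (chr10:117600001-117700000, with 50.8% of the gene and the gene Cpm) had a log2 ratio of 0.10, and its second bin (chr10:117700001-117800000, with Slc35e3 and Nup107) 0.24. The arrest genes lay in the middle or low. Cdkn1a, which encodes the cyclin-dependent kinase inhibitor p21, had 0.26 in its leading bin (chr17:29000001-29100000, 92.6% of the gene, shared with Stk38 and Srsf3). The second Cdkn1a bin (chr17:29100001-29200000) reached 0.49, but it holds 7.41% of the gene beside Rab44 and Cpne5. The antiproliferative gene Btg2 (chr1:134000001-134100000, with Fmod) had 0.28 and the cyclin G1 gene Ccng1 (chr11:40700001-40800000, with Hmmr and Nudcd2) 0.12.

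Among the genes of cell death, Bax, which permeabilises mitochondria, had the highest ratio at 0.50 (chr7:45400001-45500000, the most gene-dense member bin with 10 protein-coding genes, among them Ruvbl2, Gys1, Ftl1 and Nucb1). Bbc3, which encodes the BH3-only protein PUMA, had 0.32 (chr7:16300001-16400000, with Sae1 and Zc3h4). Phlda3, an inhibitor of AKT signalling, had 0.28 (chr1:135700001-135800000, with Csrp1 and Tnni1), and Trp53inp1, a regulator of autophagy and cell death, 0.17 (chr4:11100001-11200000, with Ccne2 and Ints8). The stress gene Sesn2, whose product restrains mTORC1, had 0.21 in its leading bin (chr4:132500001-132600000, with Atpif1, Dnajc8 and Ptafr) and 0.26 in its second bin (chr4:132400001-132500000, with Phactr4 and Med18). Gdf15, a secreted stress hormone, had the highest ratio of all members at 0.54 (chr8:70600001-70700000, with Ssbp4, Lrrc25, Pgpep1, Lsm4 and Jund). In the order of levels, Gdf15, Bax and the second Cdkn1a bin lay within 0.05 of each other, and Btg2 and Phlda3, like the leading Mdm2 bin and Ccng1 at the low end, did not differ beyond their errors.

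A member gene occupied 0.722% to 17.9% of its bin, so none of these values is specific to the gene. The bins were also gene-rich: they held a median of 3 protein-coding genes, against 1 per autosomal bin, and 11 of 13 held 3 or more, against 15.1% of autosomal bins. In autosomal bins without a protein-coding gene the median log2 gH2AX/input was -0.13, in those with 3 to 4 genes 0.20 and in those with 5 or more 0.33. The part of gene number in the members' levels was not tested.

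In each kind of cells alone, the gH2AX/input ratio was higher than 0 in 13 member bins in female WT (36.5% of all bins), 11 in female KO (33.6%), 13 in male WT (31.8%) and 13 in male KO (37.6%). The 2 bins not called in female KO were the leading Mdm2 bin (0.06, adjusted p = 0.118) and Ccng1 (0.06, adjusted p = 0.126, edgeR). The members' median was 0.32 in female WT, 0.25 in female KO, 0.20 in male WT and 0.31 in male KO. The spread of the ratio over all autosomal bins followed the same order of groups within each sex: its SD was 0.23 in female WT and 0.19 in female KO, but 0.16 in male WT and 0.25 in male KO. Gdf15 had a log2 ratio of 0.60 in female WT, 0.51 in female KO, 0.42 in male WT and 0.62 in male KO, each with a standard error of about 0.03.

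**Figure D1:**
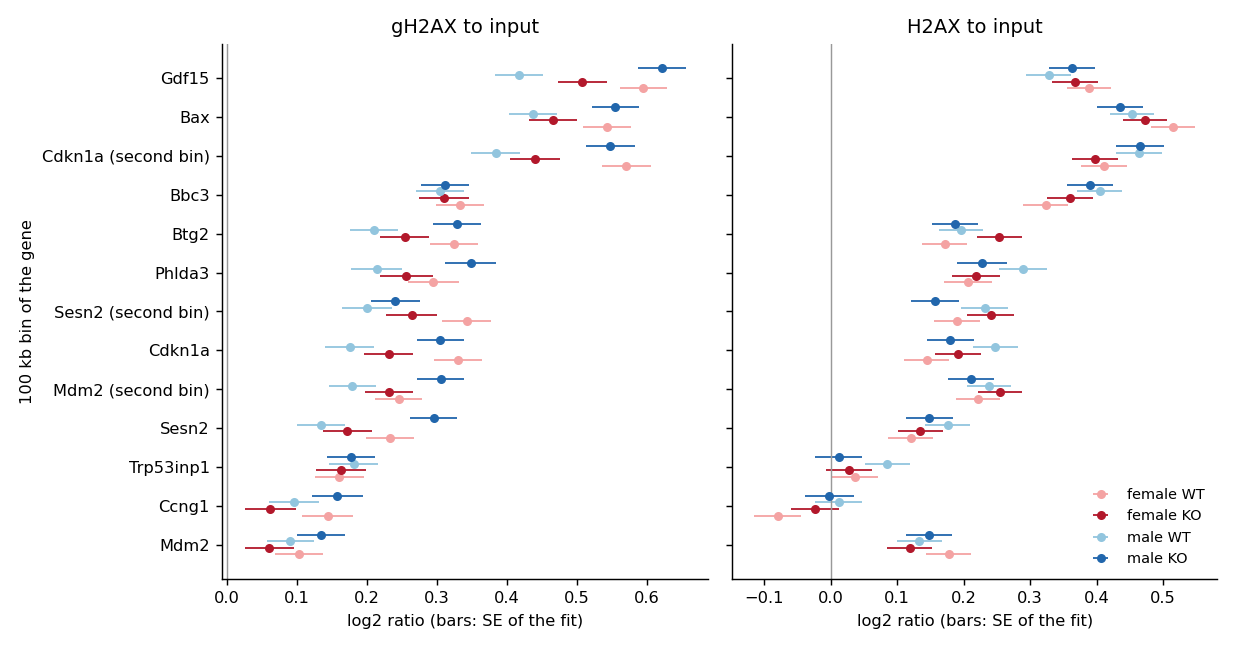
Log2 ratio to input of gH2AX and of H2AX for each member bin, with 1 point per kind of cells (2 libraries each of antibody and input) and bars of 1 standard error from the fit. Gdf15, Bax and the second Cdkn1a bin stand highest for gH2AX, and the leading Mdm2 bin and Ccng1 lowest.

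H2AX itself was also above input in most member bins. The log2 H2AX/input ratio was higher in 12 of 13 bins (44.9% of all bins) and lower in none (44.5% of all bins), with a median of 0.20 against 0.01 over the autosomal bins. It was highest for Bax (0.47), the second Cdkn1a bin (0.43), Bbc3 (0.37) and Gdf15 (0.36). Trp53inp1 was just called at 0.04 ± 0.02 (SE, adjusted p = 0.0235, edgeR), a call lost in DESeq2 (adjusted p = 0.103) and with any of 8 single libraries left out. Ccng1 was not called (-0.02, adjusted p = 0.211, edgeR).

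Relative to H2AX, gH2AX differed among the members. In Ccng1 the H2AX libraries lay between 33.57 and 36.66 CPM and the input libraries between 35.26 and 36.98 CPM. The 8 gH2AX libraries of Ccng1 lay higher, between 37.27 and 40.33 CPM, with no overlap with either. In Gdf15 the input libraries lay between 33.44 and 36.53 CPM, the H2AX libraries between 44.12 and 45.94 CPM and the gH2AX libraries between 46.25 and 54.07 CPM, in 3 separate ranges. The log2 gH2AX/H2AX ratio was 0.17 ± 0.02 (SE) in Gdf15 (adjusted p = 3.73e-20, edgeR), 0.14 in Ccng1 (adjusted p = 2.16e-12) and 0.13 in Trp53inp1 (adjusted p = 5.9e-12). In all 4 kinds of cells these 3 genes were called higher.

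Of the 13 bins, 9 were higher in gH2AX/H2AX (38.5% of all bins) and 2 were lower (36.6% of all bins), with a median of 0.06. The lower ones were Bbc3 (-0.05, adjusted p = 0.00232) and the leading Mdm2 bin (-0.05, adjusted p = 0.00949, edgeR). Bax was at 0.03 (adjusted p = 0.0765) and the second Mdm2 bin at 0.01 (adjusted p = 0.618). Bbc3 had log2 ratios to input of 0.32 with gH2AX and 0.37 with H2AX. Calls at this ratio also moved with the cells: 9 bins were higher in female WT, 3 in female KO, 3 in male WT and 11 in male KO, while 2 were lower in male WT and 1 in male KO. Of all bins, 26.6% were higher in female WT, 28.9% in female KO, 28.2% in male WT and 27.9% in male KO, and 27.1% were lower in male WT and 27.7% in male KO. The Phlda3 call (0.04) was lost in DESeq2 (adjusted p = 0.137) and with any of several single libraries left out. Its ratio was 0.03 without female WT gH2AX replicate 2. The Bbc3 call was lost without male KO H2AX replicate 1 and the leading Mdm2 call without female WT H2AX replicate 2.

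**Figure D2:**
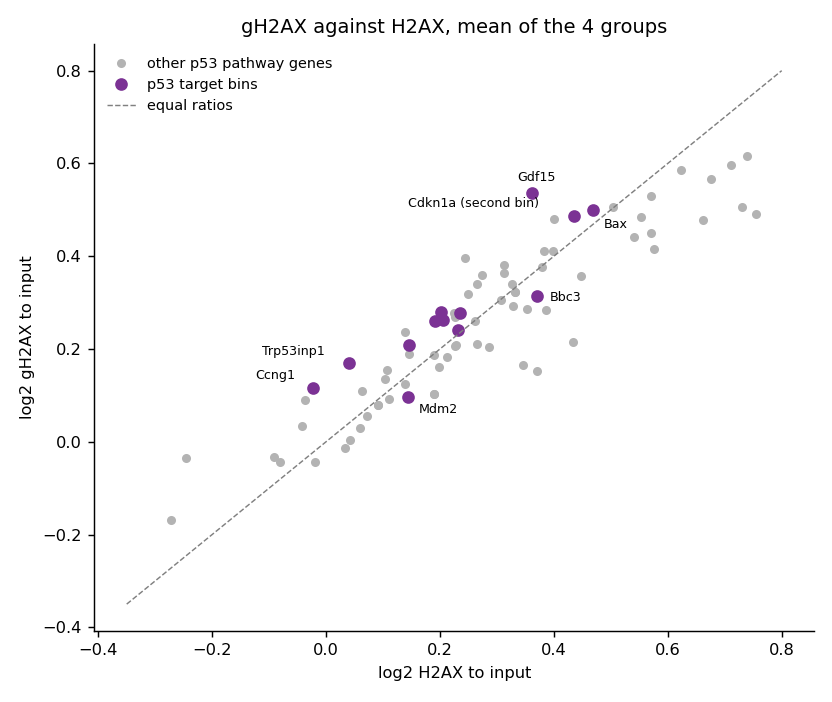
Log2 gH2AX/input against log2 H2AX/input, averaged over the 4 kinds of cells, for the bins of other p53 pathway genes (grey) and the 13 member bins, some of them named. Gdf15, Ccng1 and Trp53inp1 lie on the gH2AX side of the line of equal ratios and Bbc3 on the H2AX side.

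The members were then set beside autosomal bins with a like gH2AX/input ratio (within 0.05 log2), 325 bins for Gdf15 up to 3538 for the leading Mdm2 bin. The H2AX/input ratio was above the median of its like bins in 2 of 13 members (the leading Mdm2 bin and Bbc3), and the median difference was -0.08. Gdf15 had the largest difference, 0.36 against a like-bin median of 0.57, and only 1.85% of its like bins were lower. The gH2AX/H2AX ratio was above the like-bin median in 11 of 13 members, with a median difference of 0.08, and these are the same measurements seen from the other side. Gdf15, above 98.2% of its like bins, was the only member beyond their 90th percentile, while Ccng1 (above 89%) and Trp53inp1 (above 88.7%) lay just inside it. These positions are descriptions with no test.

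In male cells, gH2AX was higher in SIRT7-KO than in WT in 9 of the 13 member bins (22.4% of all 25702 bins) and lower in none, and bins with a like gH2AX level were higher too. The largest changes were in Sesn2, Phlda3 and Gdf15, at 11.8% to 13%. In Sesn2 the KO libraries had 44.70 and 44.87 CPM and the WT libraries 39.47 and 39.88 CPM. The replicates lay close together and the genotypes far apart. The log2 change in male Sesn2 was 0.18 ± 0.04 (SE, 13% higher, adjusted p = 1.56e-05, edgeR), the largest among the members.

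Cdkn1a gave 44.75 and 44.99 CPM in male KO against 41.18 and 40.11 CPM in male WT. Btg2 gave 46.80 and 48.02 CPM against 43.35 and 42.54 CPM. In both arrest genes the KO libraries lay above the WT libraries without overlap, and both rose by 0.14 on the log2 scale (adjusted p = 0.000477 for Cdkn1a and 0.000361 for Btg2, edgeR).

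Gdf15 gave 54.07 and 53.06 CPM in male KO and 49.24 and 46.25 CPM in male WT, a log2 change of 0.16 (adjusted p = 5.63e-05, edgeR). Bax gave 51.58 and 51.03 CPM against 48.35 and 46.42 CPM, a change of 0.11 (adjusted p = 0.00549). The Bax call was lost without male WT replicate 2 (0.08, adjusted p = 0.113). Phlda3 gave 49.31 and 44.08 CPM in KO and 40.12 and 42.71 CPM in WT, so its replicates were the least alike of these genes. Its change of 0.17 (adjusted p = 4.46e-05) was 0.09 without KO replicate 1 (adjusted p = 0.0825), and DESeq2 did not call it (adjusted p = 0.109).

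The remaining genes were close to level in males. Bbc3 gave 44.29 and 44.68 CPM in KO and 41.94 and 43.99 CPM in WT, a change of 0.05 (adjusted p = 0.2, edgeR). Ccng1 gave 39.30 and 39.75 CPM against 38.77 and 38.24 CPM, a change of 0.04 (adjusted p = 0.394). Neither passed the test, although the genotypes did not overlap in either gene. Trp53inp1 (43.00 and 44.64 CPM in KO, 43.73 and 42.43 in WT) and the leading Mdm2 bin (41.09 and 42.35 in KO, 41.99 and 40.74 in WT) overlapped, with changes of 0.03 and 0.01.

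The median change over the 13 bins was 0.11, against -0.003 over autosomal bins, and 22.2% of all bins were lower. The 9 called bins comprised the leading bins of Cdkn1a, Btg2, Bax, Phlda3, Sesn2 and Gdf15 and the second bins of Mdm2 (0.09, adjusted p = 0.0322), Cdkn1a (0.14) and Sesn2 (0.09, adjusted p = 0.0329, edgeR). Leaving out 1 library at a time left 6 to 9 calls, the fewest without male KO replicate 1, and DESeq2 called 7. The second Mdm2 and second Sesn2 bins each lost their call with any of 3 single male libraries left out. In 11 of 13 bins both KO libraries lay above both WT libraries (35.6% of all bins). These changes are relative to the other autosomal bins, so they do not show whether gH2AX rose over the whole genome. Over autosomal bins the SD of log2 gH2AX/input was 0.25 in male KO and 0.16 in male WT. Within a bin, a higher share of cells with gH2AX and more gH2AX per cell cannot be told apart in bulk chromatin.

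**Figure D3:**
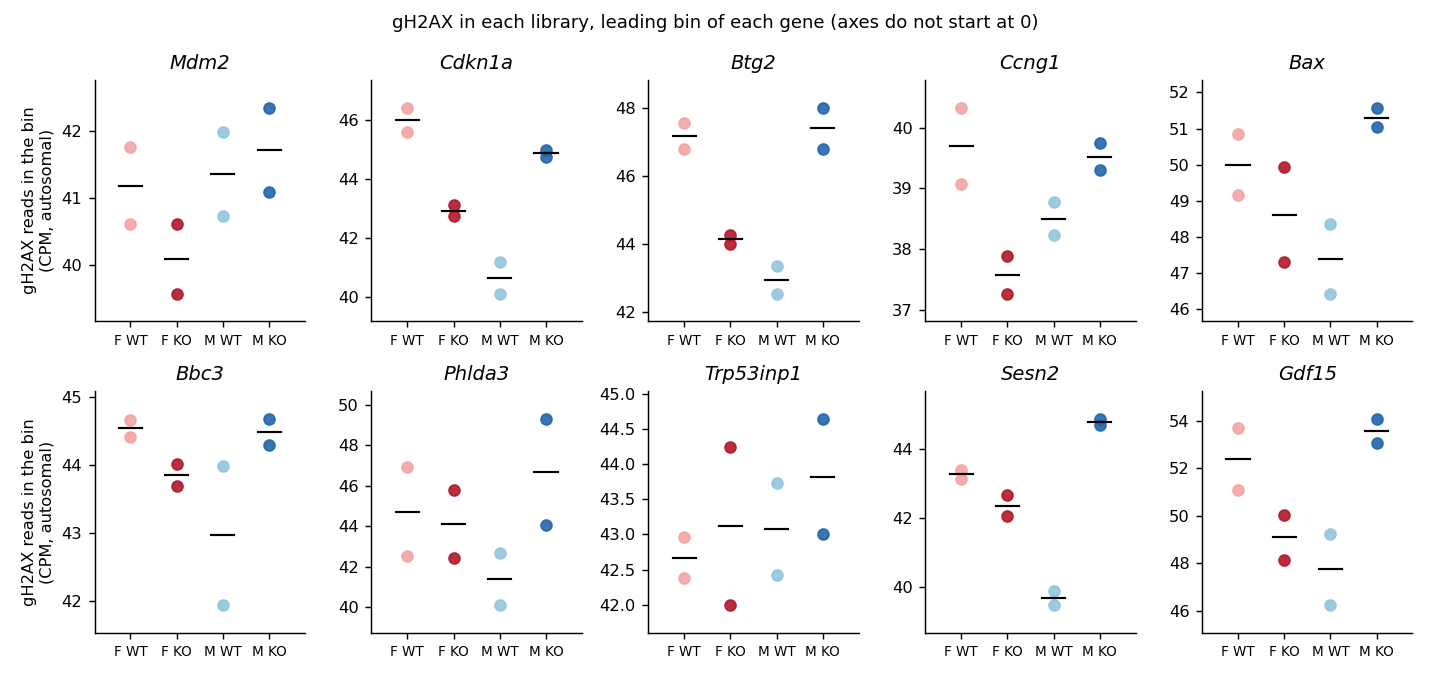
gH2AX in CPM for each of the 8 libraries (points), by sex and genotype, in the leading bin of each gene (axes do not start at 0). In males both KO libraries stand above both WT libraries in 8 of 10 leading bins, while in females both KO libraries stand below both WT libraries in 6 of 10.

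The like bins had changes of a similar size. The median over the members of their like-bin medians was 0.11 in males, and a median of 68.8% of a member's like bins passed the test in either direction. The members differed from their own like-bin medians by -0.01 in the median, and 4 of 13 were above. Sesn2 was above the 90th percentile, with 95.6% of its like bins below it (0.18 against a like-bin median of 0.09). Bbc3 was below the 10th percentile, with 8.3% of its like bins below it (0.05 against 0.12). With the trend of the change on the gH2AX/input ratio taken out of every library, 0 of 13 bins were called in males (1.67% of all bins), with 1 at an unadjusted p under 0.05, which was Sesn2 (0.09, adjusted p = 0.168, edgeR). In females, likewise, 0 were called (0.253% of all bins) and 0 had an unadjusted p under 0.05. The change also moved with gene number: 5.01% of autosomal bins without a protein-coding gene were higher in male KO, 49.9% of those with 3 to 4 genes and 64.4% of those with 5 or more. The part of gene number in the members' change was not tested.

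**Figure D4:**
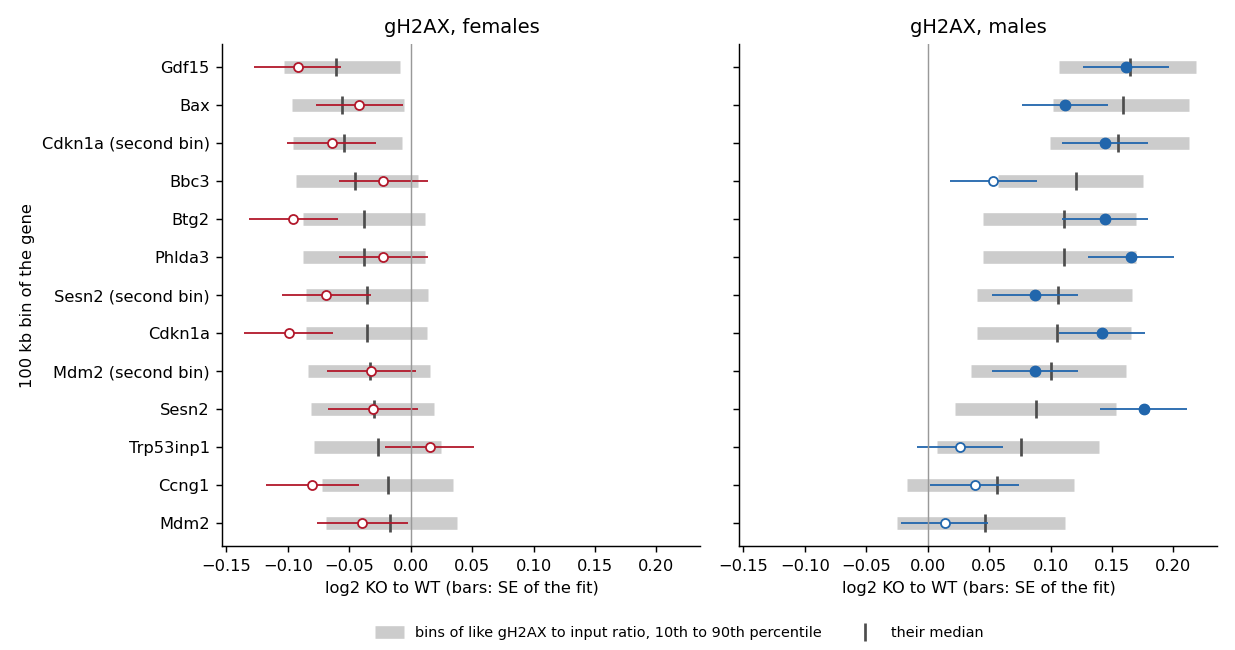
KO against WT log2 change of gH2AX in each member bin (points, with 1 standard error, filled where called), in females and in males, beside the median and the 10th to 90th percentile of autosomal bins with a like gH2AX/input ratio (bars). In males Sesn2 lies above and Bbc3 below the bar, and in females Cdkn1a, Btg2 and Ccng1 lie below it.

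In female cells no member passed the test, and 12 of 13 values were on the negative side. Cdkn1a gave 42.73 and 43.12 CPM in KO and 46.42 and 45.58 CPM in WT. Btg2 gave 44.28 and 44.01 CPM in KO and 47.56 and 46.81 CPM in WT. Both genes had non-overlapping genotypes in the order opposite to that of males, with changes of -0.10 (adjusted p = 0.152) and -0.10 (adjusted p = 0.175, edgeR).

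Gdf15 gave 50.03 and 48.16 CPM in female KO and 53.67 and 51.09 CPM in female WT, a change of -0.09 (adjusted p = 0.19, edgeR). Ccng1 gave 37.89 and 37.27 CPM against 39.08 and 40.33 CPM, a change of -0.08 (adjusted p = 0.295). Sesn2, which had the largest change in males, gave 42.04 and 42.66 CPM against 43.40 and 43.13 CPM, a change of -0.03. Trp53inp1 was the exception in sign (42.00 and 44.24 CPM in KO, 42.96 and 42.38 CPM in WT), at 0.02. Called bins numbered 0 of 13 (1.01% of all bins in either direction), 4 had an unadjusted p under 0.05, and DESeq2 also called 0. Both KO libraries lay below both WT libraries in 8 of 13 bins (21.3% of all bins). The median change was -0.04, the same as that of the like bins, and 3 members (Cdkn1a, Btg2 and Ccng1) lay below the 10th percentile of theirs.

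The difference between the sexes was tested by the interaction of KO and sex. The KO effect in females minus that in males was lower than 0 in 9 of 13 bins (20.4% of all bins) and higher in none (20.1%), with a median of -0.16. Gdf15 had the largest difference at -0.25 ± 0.05 (SE, adjusted p = 1.43e-05), followed by Cdkn1a at -0.24 (adjusted p = 4.53e-05) and Btg2 at -0.24 (adjusted p = 4.8e-05, edgeR). Trp53inp1 (-0.01, adjusted p = 0.875) and the leading Mdm2 bin (-0.05, adjusted p = 0.406) were the nearest to 0. With input changes subtracted, 6 of 13 were lower (11.9% of all bins), and with the trend on gH2AX/input removed 0 were called (0.899% of all bins in either direction). The like-bin medians of this difference ran from -0.22 to -0.06, and the members differed from them by -0.01 in the median.

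The sexes were also compared within a genotype. In WT, 7 of 13 bins were higher in females than in males (17.6% of all bins), led by Cdkn1a with a log2 difference of 0.18 (adjusted p = 1.31e-05, edgeR). In KO, 2 of 13 were lower in females than in males (12.6% of all bins), Gdf15 at -0.12 (adjusted p = 0.00285) and Btg2 at -0.11 (adjusted p = 0.0139). These contrasts use the same 8 libraries as the KO effects. Sex and the culture of origin cannot be told apart in them. Over autosomal bins, the SD of log2 gH2AX/input was 0.23 in female WT and 0.16 in male WT. It was 0.19 in female KO and 0.25 in male KO. The part of this spread in the calls between the sexes was not tested.

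No member bin was called for H2AX or input. For H2AX, 0 of 13 bins were called in females (0.152% of all bins) and 0 in males (0.191%), with median changes of 0.04 and -0.02. For input, 0 were called in females (0.183%) and 0 in males (0.222%), with medians of 0.01 and 0.01. In these 4 comparisons 0 member bins had an unadjusted p under 0.05, and DESeq2 also called 0. In Gdf15, for example, H2AX gave 44.92 and 44.82 CPM in male KO and 45.52 and 44.75 CPM in male WT, which overlap.

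Set against input, the male KO change of gH2AX was called in 5 of 13 bins (10.8% of all bins). These were Gdf15 (0.20 ± 0.05, SE, adjusted p = 0.00145), Sesn2 (0.16, adjusted p = 0.0125), the second Cdkn1a bin (0.16), the leading Cdkn1a bin (0.13, adjusted p = 0.0442) and the second Mdm2 bin (0.13, adjusted p = 0.0467, edgeR). This count depended on single libraries: it was 1 without male KO input replicate 2, 2 without male WT input replicate 1 and 3 without male KO gH2AX replicate 1. Among bins with a like gH2AX/input ratio, a median of 32.6% of a member's like bins passed this male test in either direction. The median of the like-bin medians was 0.10, against 0.12 over the members, and 9 of 13 members were above their own. In females 0 were called (0.389% of all bins in either direction), with 2 at an unadjusted p under 0.05. Set against H2AX, 8 of 13 bins were higher in male KO (15.9% of all bins), among them Cdkn1a (0.20, adjusted p = 0.00106), Phlda3 (0.20, adjusted p = 0.00234), Sesn2 (0.19, adjusted p = 0.00183) and Gdf15 (0.17, adjusted p = 0.00413). In females 0 were called against H2AX (0.237% of all bins).

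Each leading bin was then set in its chromosomal neighbourhood, beside the 20 bins within 1 Mb on either side. For Mdm2, Cdkn1a and Sesn2 these flanks include the gene's own second bin. The gH2AX/input ratio was above the flank median in 7 of 10 genes, with a median difference of 0.03. With 5 flanks on each side it was above in 5 of 10, with a median difference of -0.0016, so the direction depended on the reach of the flanks. In Ccng1 the ratio of 0.12 was above all 20 flanking bins, which ran from -0.28 to 0.02. Its male KO change of 0.04 was likewise above all 20 flanks (-0.21 to 0.01), and its female change of -0.08 was below all 20 (-0.04 to 0.13). The Ccng1 bin holds 3 protein-coding genes, whereas 19 of its 20 flanks hold 0, and the part of gene number in these differences was not tested. Cdkn1a lay low in a strongly marked region, at 0.26 against a flank median of 0.43, with 2 of 20 flanks below it.

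Sesn2 also lay low in its region, with a gH2AX/input ratio of 0.21 against a flank median of 0.30. Its H2AX/input ratio of 0.14 was below all 20 flanks (0.16 to 0.64). Its male KO change of 0.18, in contrast, was above 18 of 20 flanks, whose median was 0.09. H2AX/input was above the flank median in 4 of 10 genes. Gdf15 had a gH2AX/input ratio of 0.54 near its flank median of 0.50, but an H2AX/input ratio of 0.36 against 0.49, with 4 of 20 flanks below it. Flanks of neighbouring bins share chromatin and are not replicates, so these positions carry no test.

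**Figure D5:**
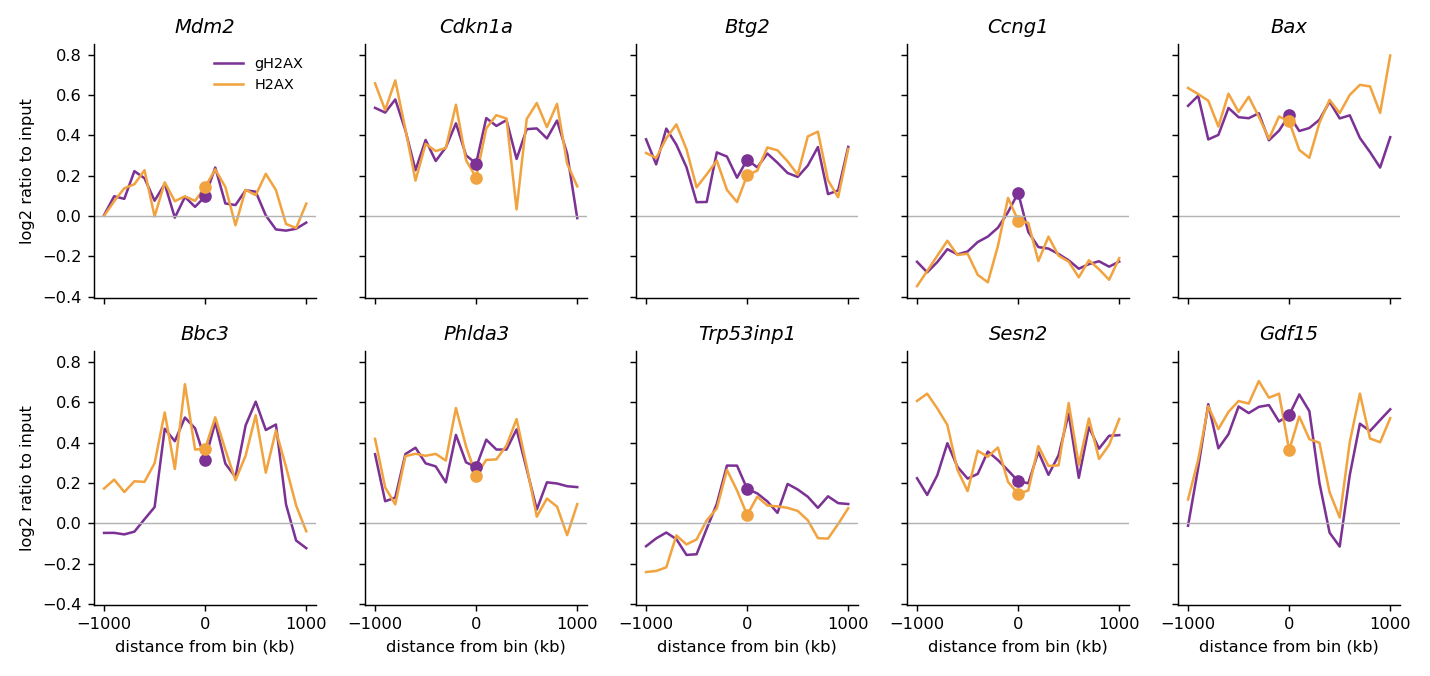
Log2 ratio to input of gH2AX and of H2AX by distance (kb) from the leading bin of each member gene, out to 1 Mb on either side, with the leading bin as a point. In gH2AX/input Ccng1 lies above all of its flanks, while Cdkn1a and Sesn2 lie below most of theirs.

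The other genes of the p53 pathway were counted in the same way. Of 54 further p53 targets, 47 had gH2AX above input (41.5% of all bins) and 2 below it (45.2% of all bins), namely Rprm, a G2 arrest gene, at -0.17, and the polo-like kinase gene Plk2 at -0.04. The highest were Fdxr (0.62), Siva1 (0.60) and Klhl26 (0.59). Of 14 regulators, 12 were above and 1 below, against the same 41.5% and 45.2% of all bins. The 1 below was the damage kinase gene Atr at -0.04, while Trp53 itself had 0.32, Mdm4 0.38, Chek2 0.26 and Atm 0.06. Of autosomal bins without a protein-coding gene 14.2% were higher, and of those with 1 gene 45.4%. With 3 to 4 genes 78.9% were higher, and with 5 or more 83.4%. The part of gene number in the counts of targets and regulators was not tested. In gH2AX/H2AX 15 of 54 targets were higher (38.5% of all bins) and 23 lower (36.6% of all bins). The death receptor gene Fas (0.21), Ddit4 (0.15) and Pmaip1 (0.13) were highest, and Trp73 (-0.26), Notch1 (-0.22) and Prkab1 (-0.22) lowest.

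In male KO against WT, 33 of the 54 targets were higher in gH2AX (22.4% of all bins) and 1 was lower (22.2%), with a median of 0.10. Dyrk3 (0.23), Pidd1 (0.22) and Hexim1 (0.21) were highest and Rprm was the one lower (-0.11, adjusted p = 0.0182, edgeR). Of the regulators 7 of 14 were higher (22.4% of all bins), among them Trp53 (0.13, adjusted p = 0.00136) and Chek2 (0.17, adjusted p = 4.05e-05), whereas Mdm4 (0.07, adjusted p = 0.0677) and Atm (0.05, adjusted p = 0.285) were not called. In females 0 targets were higher and 1 was lower (0.595% of all bins), the checkpoint gene Sfn at -0.15 (adjusted p = 0.0145), and no regulator was called. The KO effect differed between the sexes in 28 of 54 targets and 8 of 14 regulators, each of them lower in females (20.4% of all bins were lower and 20.1% higher), with Pidd1 (-0.34), Ak1 (-0.32) and Dyrk3 (-0.29) farthest apart. After removal of the trend on gH2AX/input, 0 of these 68 genes were called in males (1.67% of all bins) and 1 in females (0.253% of all bins), Trp73 (0.15, adjusted p = 0.0136). As for the members, each of these values is that of a 100 kb bin.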

How the data were processed

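The authors deposited raw read counts for each library in bins of 100 kb. The submitters' processing notes name build mm10, the aligner Bowtie2 2.2.9, read trimming software Trimmomatic 0.36 and deepTools 2.4.2. How duplicates and reads with several alignments were treated is not given in the sources used here. Another 24 columns of the table could not be matched to a labelled sample and were not used. Counts were tested with edgeR 4.0.16 (R 4.3.3, limma 3.58.1) by quasi-likelihood F tests with TMM factors from the autosomes, after filterByExpr, with 1 mean per group of 2 libraries. All 8 libraries of an antibody entered the KO tests and all 24 the ratios. P-values were adjusted over all bins by the Benjamini-Hochberg method and called under 0.05. They measure only the spread between these libraries, which may be technical. In the gH2AX fit this spread was pooled over bins, and a bin's own replicate spread had no weight. Phlda3, with replicates far apart, thus had nearly the standard error of Sesn2 (0.0361 and 0.0363 for female against male WT). Tests were tried on simulated data. DESeq2 1.42.0, other scalings, no filter, a replicate block and leaving out each library were alternatives.

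The trend fit subtracted a lowess curve (span 0.3) of each gH2AX library on the gH2AX/input ratio. Bins overlap gene bodies of RefSeq GRCm38.p6. All 10 members are named. Of the other pathway genes, the 3 with the largest called change per direction, and Trp53, Mdm4, Atm and Chek2, are named. Of 55 such targets, 1 shares a member bin and was left out. The members and lists were chosen with earlier results of these data known. The planned search for p53 sites across gene bodies was limited to the promoter windows, as no genome sequence was used here.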

Additional observations from a re-analysis of the deposited data

Results flagged for a closer look

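In 9 member bins the KO effect on gH2AX differed between the sexes by the test of the difference itself (edgeR, the interaction of KO and sex), being lower in females than in males. On the log2 scale the female minus male effect was -0.25 in Gdf15, -0.24 in Cdkn1a, -0.24 in Btg2, -0.21 in the second Cdkn1a bin, -0.21 in Sesn2, -0.19 in Phlda3, -0.16 in the second Sesn2 bin, -0.15 in Bax and -0.12 in the second Mdm2 bin. Adjusted p ranged from 1.43e-05 in Gdf15 to 0.0453 in the second Mdm2 bin, beside 20.4% of all bins called lower. Bins with a like gH2AX/input ratio differed between the sexes too. A median of 66.4% of a member's like bins passed the test in either direction. The median of the like-bin medians was -0.15, against -0.16 over the members. With the trend on gH2AX/input removed 0 of 13 members were called, and with input changes subtracted 6 of 13 were lower. The Phlda3 difference was not called by DESeq2 (adjusted p = 0.225), and that of the second Mdm2 bin was not called by it either (adjusted p = 0.0657). Some calls were also lost with a single library left out. The difference was then -0.09 in the second Mdm2 bin (without male WT replicate 1) and -0.11 in Bax (without female KO replicate 1). It was -0.11 in Phlda3 (without female WT replicate 2) and -0.12 in the second Sesn2 bin (without female KO replicate 1).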

How the results depend on the processing

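Under other scalings, no filter, DESeq2 and the replicate block, the counts of called member bins stayed within 1.5 times except for the gH2AX change relative to input in male KO. That count was 5, against 8 with DESeq2 size factors in edgeR and 3 over leading bins alone, and 1 to 7 with 1 library left out. Its split over all bins was 2767 higher and 2260 lower, against 3348 and 1722 with DESeq2 size factors, and for gH2AX in females it was 107 higher and 153 lower, against 9 and 88 in DESeq2. Leaving out 1 library gave 6 to 9 calls for male gH2AX, 6 to 8 for the difference between the sexes and 0 for female gH2AX. Among uncalled values, with 1 library left out, male Mdm2 ran from -0.01149 to 0.03733, male Trp53inp1 from -0.004869 to 0.05025, female Phlda3 from -0.08842 to 0.05274, female Trp53inp1 from -0.02246 to 0.05257 and the sex difference of Trp53inp1 from -0.04908 to 0.02595, so their signs turned. With 5 flanking bins on each side, the median difference of gH2AX/input from the flanks was -0.0016 in place of 0.03.

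Libraries of the same replicate number deviated together weakly at most within an antibody (r from -0.0406 to 0.096), and for gH2AX r was always positive (0.0391 to 0.096). Between the assays of the same kind of cells r ran from -0.0219 to 0.0685. As these values were small, the numbers were not taken as pairs. With the replicate block, 9 member bins were called for male gH2AX, 9 for the difference between the sexes, 6 for the male change relative to input and 0 for female gH2AX, and over all bins 11898, 10922, 5199 and 362, against 11481, 10404, 5027 and 260 without it. At this depth the spread between replicates was larger than counting error in all 12 groups, but counting error was not negligible. It reached 2.14% in the lowest member count, near the median spread beyond counting of 2.12% for gH2AX and 2.13% for H2AX. With 2 libraries per group an exact permutation test of a single bin could not go below 0.333.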
